A study of Manis javanica with 3 samples.

Results

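The genes described are those of apolipoproteins and lipoprotein assembly in the Malayan pangolin, Manis javanica: APOA1, APOA2, APOA4, APOB, APOC2, APOC3, APOE, APOH, APOM and MTTP. They were 10 of the 24220 genes in the deposited tables. Genes were taken by the symbol in their Swiss-Prot or KEGG entry, which found 9, and APOA4, which carried no symbol, was found by the protein named in its NR entry. For all 10 genes the NR entry named the same protein. These names are best database hits, and no sequence check for paralogs was made. RNA was sequenced from liver, salivary glands and small intestine of 1 wild adult female, giving 1 library for each. The animal died while being rescued, had ants in its stomach, was untreated as far as the labels say, and was dissected at once. Since the 3 libraries came from 1 animal and no tissue had a second library, no value has a replicate check, no test between tissues was possible, and the 95% intervals given below cover counting error only.

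Lipoproteins carry triglyceride and cholesterol through blood inside a shell of phospholipid and apolipoproteins. In mammals APOB is the large scaffold of very low density and low density lipoprotein, and it is loaded with lipid in the endoplasmic reticulum by the microsomal triglyceride transfer protein, whose large subunit is MTTP. Smaller exchangeable apolipoproteins then shape the particle: APOA1 and APOA2 are the main proteins of high density lipoprotein, APOC2 and APOC3 turn lipoprotein lipase on and down, and APOE brings remnants to their receptors. Liver and the absorptive cells of the small intestine are the known sites of APOB lipoprotein secretion.

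The libraries held 10158924 counts for small intestine, 8318686 for salivary glands and 14568778 for liver, and their 10 most abundant genes took 43.3%, 23.1% and 16.1% of them. All 16 hepatocyte marker genes searched for were found and had an FPKM (fragments on a gene scaled by its transcript length and by the mapped fragments of the library) above 1 in liver. So did 57.0% of all genes, and the 16 ranged widely, from 5.67 for F9 through 434 for ALB to 12822 for FGB. The library labelled small intestine did not show the usual markers of absorptive cells: FABP2, LCT, ISX and CDX1 had 0 counts, SI had 2, and only 5 of 17 enterocyte list genes exceeded an FPKM of 1. These were VIL1, SLC5A1 and 3 loci named CREB3L3, a gene that hepatocytes also express. Gastric genes were high there, with a median FPKM of 262 over 13 list genes against 0.357 in salivary glands, and 12 of the 13 had 0 counts in liver. Below, this library goes by its label, and the liver levels of the 10 genes are compared with both other libraries.

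In liver the 10 genes together took 0.927% of all counts (95% Wilson interval 0.922% to 0.932%), against 0.00723% in small intestine (0.00672% to 0.00777%) and 0.00119% in salivary glands (0.000978% to 0.00145%). Without APOE, the other 9 genes still took 0.351% of liver counts, 0.000807% of small intestine counts and 0.000168% of salivary gland counts. An FPKM above 1 was reached by 10 of the 10 genes in liver, by 2 in small intestine (APOA1 and APOE) and by 1 in salivary glands (APOE). Among all 24220 genes, 57.0% exceeded that level in liver, 59.4% in small intestine and 56.3% in salivary glands. No gene of the set had 0 counts in liver, 2 had 0 counts in small intestine and 6 in salivary glands. Of all 24220 genes, 19207 had counts above 0 in liver, 19235 in small intestine and 18714 in salivary glands. A count of 0 allowed up to 3 counts, or 0.295 CPM (counts scaled to the library total) in small intestine and 0.361 CPM in salivary glands. In whole tissue, fewer cells of a type and less RNA per cell cannot be told apart.

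**Figure D1:**
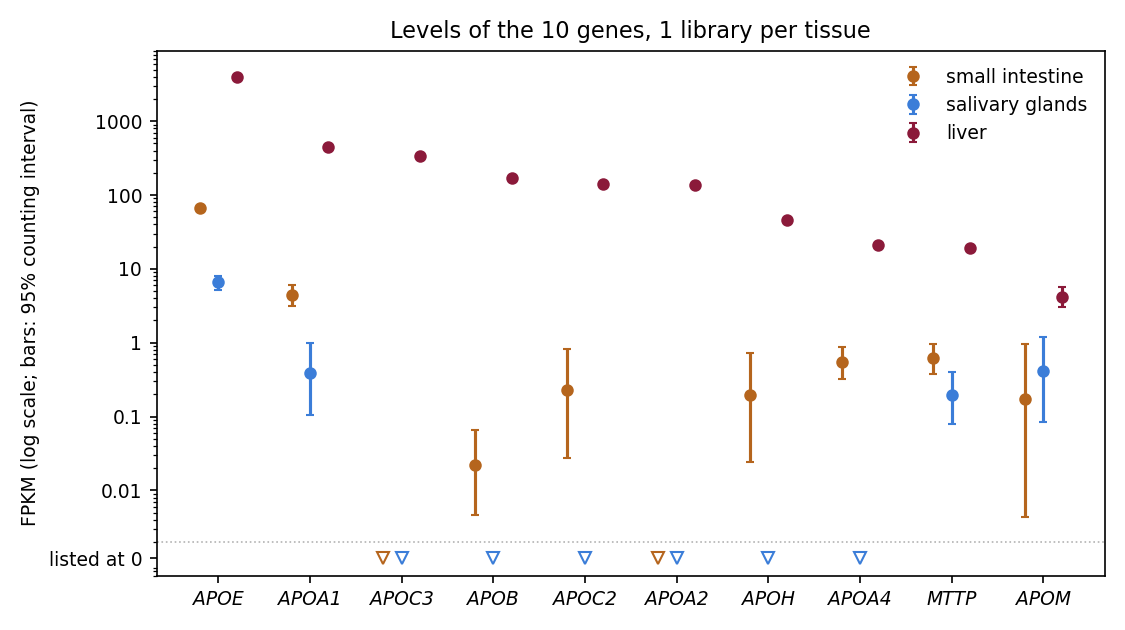
FPKM of each gene (log scale) in the small intestine, salivary glands and liver libraries, 1 library each, with genes ordered by their liver level. Bars are 95% counting intervals and open triangles mark genes listed at 0, and the liver point is the highest of the 3 for each gene, from 3937 for APOE to 4.17 for APOM.

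The order of levels in liver, per length, ran from APOE through APOA1, APOC3, APOB, APOC2, APOA2, APOH, APOA4 and MTTP to APOM. Of the 9 neighbouring pairs in that order, 7 had counting intervals that did not overlap. APOC2 (FPKM 140, interval 133 to 148) and APOA2 (138, interval 129 to 147) overlapped, as did APOA4 (20.8, interval 19.9 to 21.9) and MTTP (19.2, interval 17.9 to 20.5). The order was the same when the level was computed from the counts and the deposited gene length, although single values then moved to between 0.577 and 1.25 times the FPKM. The deposited FPKM is therefore not simply the count over the deposited length, and the size of a gap between genes depends on the length used. APOE alone made up 74.8% of the summed FPKM of the 10 genes in liver, 91.4% in small intestine and 86.9% in salivary glands.

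APOB, the structural protein of the particle, lies on scaffold NW_016543039.1 at 111466 to 149375 on the minus strand, and has the longest transcript of the set at 14033 bases. It had 3 counts in small intestine, 0 in salivary glands and 33326 in liver, with an FPKM of 0.02235, listed at 0, and 171. Liver stood alone here, and the other libraries were at or near the detection limit. After the counts were scaled for depth and composition by the trimmed mean of M values (TMM), the liver count was 6562 times that of small intestine, with an exact interval of 2245 to 31823. It was at least 7378-fold higher than in salivary glands, with the count of 0 taken as 3. Because of its length, APOB held 24.7% of the liver counts of the 10 genes but 3.25% of their FPKM. Its FPKM ranked 362 among all genes in liver.

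MTTP, the lipid-loading subunit, had 20 counts in small intestine, 7 in salivary glands and 880 in liver, with an FPKM of 0.624, 0.194 and 19.2. Liver was highest by a wide margin, and both other libraries lay below an FPKM of 1. The scaled liver count was 26.0 times that of small intestine (16.7 to 42.8) and 83.5 times that of salivary glands (40.4 to 208). In liver the FPKM of APOB was 8.93 times that of MTTP. P4HB, the protein disulfide isomerase that forms the small subunit of the transfer protein and also folds many other secreted proteins, had an FPKM of 197, 266 and 686 in small intestine, salivary glands and liver. P4HB thus exceeded MTTP 315-fold in small intestine, 1370-fold in salivary glands and 35.8-fold in liver on the FPKM scale.

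APOA1, the main protein of high density lipoprotein and activator of the enzyme LCAT, had 37 counts in small intestine, 4 in salivary glands and 7537 in liver (FPKM 4.43, 0.387 and 453). Liver was highest and small intestine second. The scaled ratio was 120 against small intestine (87.2 to 171) and 1251 against salivary glands (489 to 4594). APOA2, the second protein of high density lipoprotein, had 0, 0 and 899 counts, and an FPKM of 138 in liver. Its liver count was at least 177-fold higher than in small intestine and at least 199-fold higher than in salivary glands. In liver APOA1 exceeded APOA2 by 3.29-fold on the FPKM scale.

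APOM, a small lipocalin that carries sphingosine 1-phosphate on high density lipoprotein, was the lowest of the set. It had 1 count in small intestine, 3 in salivary glands and 44 in liver, with an FPKM of 0.172, 0.412 and 4.17. Liver was again highest, and the order of the other libraries is not resolved by counts so small. The scaled ratio was 26.0 against small intestine with an interval of 4.43 to 1050, and 9.74 against salivary glands with an interval of 3.12 to 49.0. APOM was the only gene of the set less than 16-fold higher in liver than in salivary glands.

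APOC3, which slows lipolysis and remnant uptake, had 0 counts in both other libraries and 4827 in liver, an FPKM of 336. Its liver count was at least 951-fold higher than in small intestine and at least 1069-fold higher than in salivary glands. APOC2, the cofactor of lipoprotein lipase, had 2, 0 and 1333 counts in small intestine, salivary glands and liver, and an FPKM of 0.226, listed at 0, and 140. The inhibitor thus stood 2.40-fold above the activator in liver FPKM. For APOC2 the scaled ratio was 394 against small intestine (109 to 3255), and its liver count was at least 295-fold higher than in salivary glands.

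APOE, the remnant ligand, was the only gene of the set above an FPKM of 5 outside liver. It had 652 counts in small intestine, 85 in salivary glands and 83902 in liver, and its FPKM was 66.1 (61.1 to 71.4), 6.56 (5.24 to 8.11) and 3937 (3910 to 3963). The 3 intervals were far apart, and liver was highest. Its level ranked 16 among all genes in liver, 721 in small intestine and 7251 in salivary glands. The scaled ratio of liver was 76.0 to small intestine (70.4 to 82.2) and 656 to salivary glands (530 to 821). In liver APOE exceeded APOA1 8.70-fold and APOB 23.0-fold on the FPKM scale.

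APOE is also a known product of macrophages. Of 12 macrophage symbols searched for, 11 were found, and all 11 genes were at least 2-fold higher in liver than in each other library. Over all genes tested, 24.0% were so against small intestine and 24.9% against salivary glands. The 11 were chosen as macrophage markers. The summed FPKM of these 11 genes was 62.2 in small intestine, 67.1 in salivary glands and 884 in liver, and MARCO was the only one with 0 counts in a library, small intestine. C1QC had an FPKM of 18.7, 16.3 and 367, C1QB 19.1, 12.3 and 276, CD14 12.2, 26.9 and 84.1, and CD163 7.67, 6.96 and 61.0. Between small intestine and salivary glands, where the summed macrophage levels were 62.2 and 67.1, APOE was 8.62 times higher in small intestine after scaling (6.87 to 10.9). The part of macrophages in the APOE level was not tested.

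APOA4, an exchangeable apolipoprotein linked to chylomicrons and made chiefly by the intestine in humans, had 17 counts in small intestine, 0 in salivary glands and 1695 in liver (FPKM 0.547, listed at 0, and 20.8). Liver was highest, 58.9 times small intestine after scaling (36.7 to 101) and at least 375-fold higher than salivary glands. APOA1 exceeded APOA4 21.7-fold in liver FPKM, on liver counts of 7537 and 1695. The APOA4 model is 4942 bases long beside 936 for APOA1 and overlaps the locus of APOC3, so this ratio is uncertain. APOH, or beta-2-glycoprotein I, a plasma protein that binds phospholipid and is the antigen of antiphospholipid antibodies, had 2, 0 and 656 counts and an FPKM of 0.198, listed at 0, and 45.4. Its scaled ratio was 194 against small intestine (53.4 to 1603), and liver was at least 145-fold higher than salivary glands.

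Over the whole set, 10 of the 10 genes were at least 2-fold higher in liver than in small intestine, where 24.0% of the 17399 genes with at least 10 counts in either library were. Their median log2 ratio of scaled counts was 7.19, beside 0.08 over all genes tested, with counts of 0 taken as 3. All 10 also exceeded 16-fold, which 3.66% of genes tested did, and 7 exceeded 64-fold, which 1.39% did. Against salivary glands, 10 of 10 were at least 2-fold higher in liver, beside 24.9% of 17162 genes tested, with a median log2 ratio of 8.38 beside 0.07. There 9 exceeded 64-fold, beside 1.72% of genes tested. Both comparisons share the liver library, so they are not independent. All 10 genes passed the minimum of 10 counts in liver, 4 also passed it in small intestine and 1 in salivary glands. In the first comparison 6 genes passed through liver alone, and in the second 9 did. For such genes the minimum itself favoured a higher liver level, so these counts and medians are a description.

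**Figure D2:**
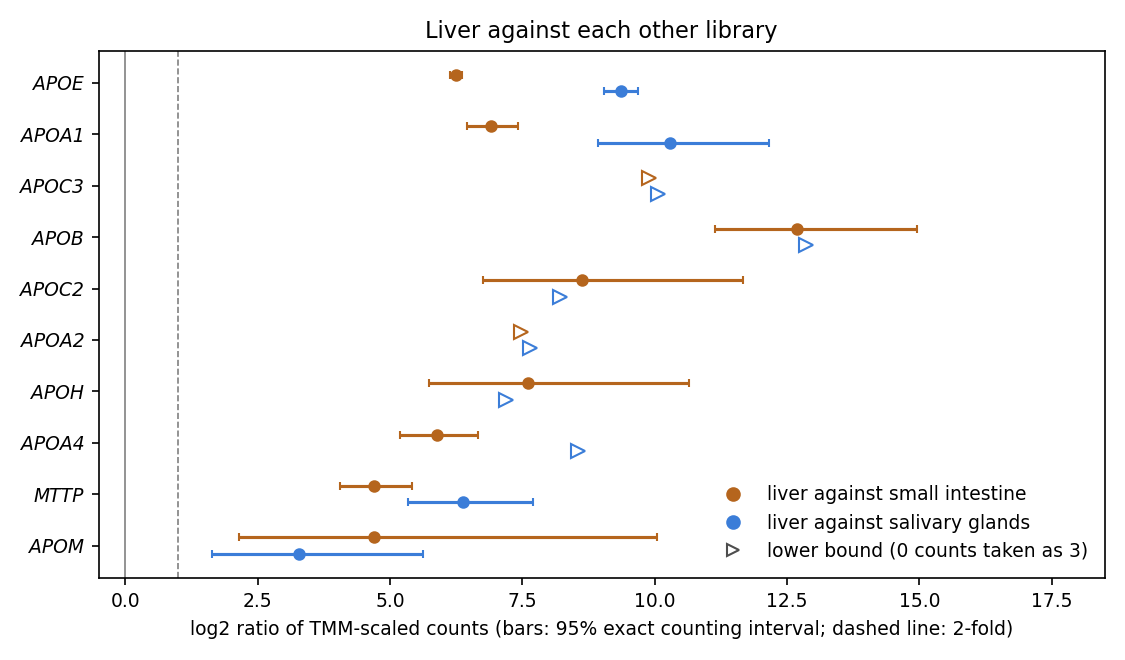
Log2 ratio of TMM-scaled counts of liver against small intestine and against salivary glands for each of the 10 genes. Bars are 95% exact counting intervals, open triangles are lower bounds from a count of 0 taken as 3, and every point lies to the right of the dashed 2-fold line, from 3.28 for APOM to 12.85 for APOB against salivary glands.

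Between the 2 libraries other than liver, only APOE, APOA1, APOA4 and MTTP had at least 10 counts in either, and all 4 were at least 2-fold higher in small intestine, as were 20.6% of 16519 genes tested. The other 6 genes had at most 3 counts in each library, so no difference between them was detectable at this depth. APOA1 was 10.4 times higher (3.74 to 40.2), APOE 8.62 times, APOA4 at least 6.37-fold higher and MTTP 3.21 times (1.31 to 8.99). The interval of MTTP reaches below 2-fold, so its side of that line is not settled by its counts. Of the 4, only APOE passed the minimum of 10 counts in both libraries. The other 3 passed it through small intestine alone, so the count of 4 was largely fixed by the minimum and is a description.

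Each of the 10 genes stood below 5% of its liver level in small intestine, and 9 did so in salivary glands. The share of all genes below 5% was not computed. Beside small intestine 6 of the 10 reached 10 counts in liver alone, and beside salivary glands 9 did, so these counts are a description. The FPKM in small intestine was a median of 0.708% of the liver FPKM over the 10 genes, with a highest value of 4.12% for APOM, which rests on 1 count. In salivary glands 6 of the 10 were listed at 0, and the highest, again APOM, was at 9.87%. For APOE the share was 1.68% in small intestine and 0.167% in salivary glands, and for APOA1 it was 0.978% and 0.0854%. Of the 16 hepatocyte genes, 8 had 0 counts in small intestine and 8 in salivary glands, of which 6 were at 0 in both. The fibrinogen genes FGB and FGG had an FPKM of 12822 and 12649 in liver with 0 counts elsewhere, and FGA 9658 in liver with 2 and 5 counts elsewhere. ALB had the highest share in small intestine, with an FPKM of 89.1 against 434 in liver, or 20.5%, followed by TTR at 6.37%, on 2 counts, and AHSG at 3.71%. SERPINA1 was at 20.5% of its liver level in salivary glands. The 11 macrophage genes had medians of 5.11% in small intestine and 6.56% in salivary glands. Their part in the levels of the 10 genes outside liver was not tested.

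**Figure D3:**
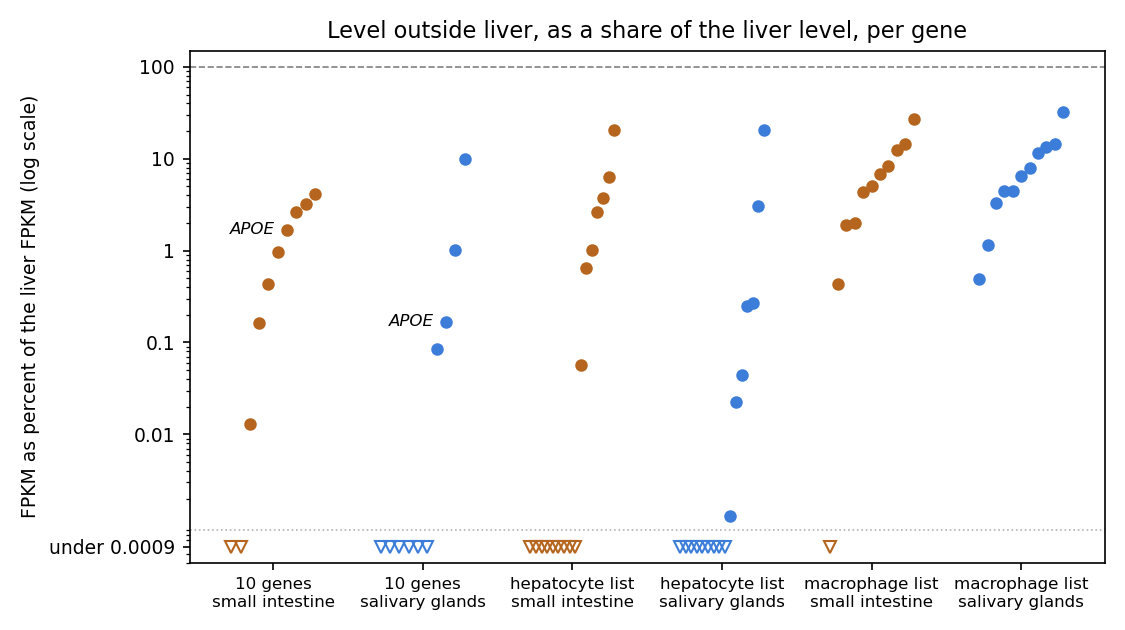
FPKM in small intestine (brown) and salivary glands (blue) as a percent of the liver FPKM of the same gene (log scale), for the 10 genes, 16 hepatocyte genes and 11 macrophage genes, each point a gene. Open triangles mark genes at 0 or under 0.0009%, and the 10 genes reach at most 4.12% in small intestine, below the highest hepatocyte gene at 20.5%.

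Of the 10 genes, 5 lie in 2 groups on the scaffolds. On scaffold NW_016530434.1, APOA4 (54198 to 63530, minus strand), APOC3 (61550 to 64103, plus strand) and APOA1 (66121 to 67804, minus strand) follow each other. The loci of APOA4 and APOC3 overlap by 1981 bases on opposite strands, and the reads were aligned as unstranded, so their reads cannot be told apart there and both values are uncertain. The APOA4 model is 4942 bases long, beside 936 for APOA1. APOA1 lies 2017 bases from APOC3. The next gene beyond APOA1, a serine/threonine kinase named SIK3 in its NR entry, had an FPKM of 28.1 in small intestine, 15.5 in salivary glands and 20.4 in liver, and so was not highest in liver. On the other side, 9435 bases from APOA4, a new gene whose NR entry names a hypothetical protein had 0, 0 and 69 counts, so that liver alone had reads there too.

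On scaffold NW_016538822.1, APOE (179139 to 182057) and APOC2 (192273 to 197903) lie on the plus strand 10215 bases apart. APOC4, a further small apolipoprotein gene, is annotated within the locus of APOC2 on the same strand, with 1642 shared bases, so that the counting could split reads between them. APOC4 had 1, 0 and 32 counts in small intestine, salivary glands and liver, and an FPKM of 6.20 in liver against 140 for APOC2. TOMM40, a mitochondrial import gene 1701 bases from APOE, had an FPKM of 23.0, 19.0 and 26.5, and CLPTM1 on the other side of APOC2 had 27.3, 31.9 and 20.3. Within 50 kb of any of the 10 lay 31 genes without an apolipoprotein name, the new gene near APOA4 included. Of these, 26 had at least 10 counts in liver or small intestine. Among the 26, 7 (26.9%) were at least 2-fold higher in liver and 3 (11.5%) lower, beside 24.0% and 24.2% of all genes tested. Their median log2 ratio was 0.42, beside 0.08 over all genes tested. Against salivary glands 25 were tested, with 7 higher in liver and 3 lower, beside 24.9% and 22.9% of all genes tested, and a median of 0.61. In the RefSeq annotation of another M. javanica assembly, used for names and neighbours only, all 10 genes are listed and APOA1, APOC3, APOA4 and APOA5 follow in that order, as do APOC2, APOC4, APOC1 and APOE. Both APOA5 and APOC1 were searched for here by NR product name, and no gene was found. In that annotation APOA5 lies between APOA4 and ZPR1. Here the new gene whose NR entry names a hypothetical protein lies between APOA4 and a gene with the NR name ZPR1. Whether this new gene is APOA5 was not tested.

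**Figure D4:**
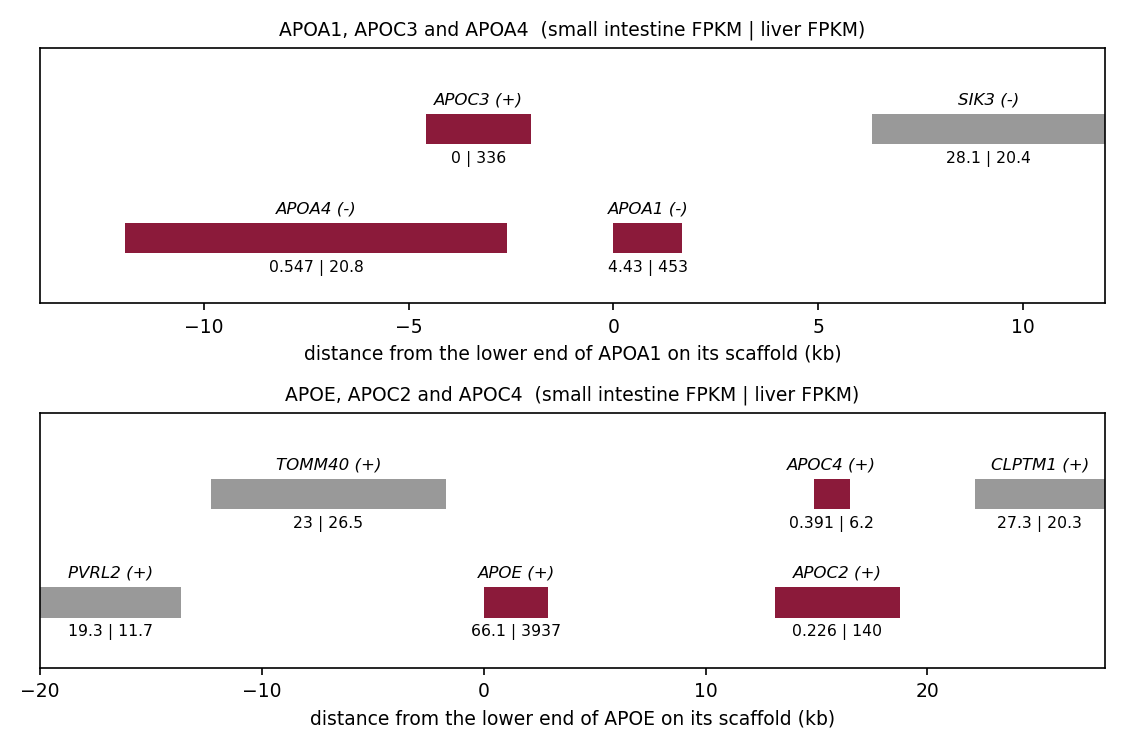
Loci around APOA1 (top) and APOE (bottom) drawn to scale, as distance in kb from the lower end of APOA1 or APOE on its scaffold, with the strand in brackets and genes at the edges cut off. The numbers under each gene are its FPKM in small intestine and in liver, and each apolipoprotein gene (dark red) is higher in liver, from 0.391 against 6.20 for APOC4 to 66.1 against 3937 for APOE, whereas the neighbours (grey) lie between 11.7 and 28.1 in both.

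The remaining genes of the pathway are counted below by list, to be read beside all genes tested, of which 24.0% were higher and 24.2% lower in liver than in small intestine, and 24.9% higher and 22.9% lower than in salivary glands. Among other apolipoproteins and proteins carried on lipoproteins, 13 of 23 symbols were found, as 15 genes. Of the 11 with at least 10 counts in liver or small intestine, 9 were at least 2-fold higher in liver and 1 lower, with a median log2 ratio of 1.88. Against salivary glands 8 of 12 were higher and 1 lower (median 2.11). SAA2, an acute phase apolipoprotein of high density lipoprotein, had 0, 0 and 13786 counts in small intestine, salivary glands and liver, and its liver FPKM of 1556 was 3.44 times that of APOA1. SAA4 had an FPKM of 156 in liver and 0 counts elsewhere. CLU, or clusterin, also called apolipoprotein J, had an FPKM of 242, 1241 and 1038, and so was not lower in salivary glands than in liver. PLTP, the phospholipid transfer protein, had 8.46, 6.72 and 27.1, and a second locus with that NR name had 3.11, 2.53 and 9.99. Of the remaining genes with an apolipoprotein name, APOD had 1.54 in salivary glands and at most 0.130 elsewhere. APOO had 2.59, 2.45 and 10.03, and APOL3 had 3.66, 1.51 and 8.06. One locus named apolipoprotein F had 1.31, 0.808 and 0.527. A gene named for an apolipoprotein L domain, gene284, had 9.80, 3.02 and 0.464, and the apolipoprotein B receptor had 0.1003, 0.134 and 1.28. A second apolipoprotein F locus, APOL5 and APOL6 had 0 counts in all 3 libraries.

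The genes that assemble and export lipoproteins beside MTTP showed a smaller median liver excess than the 10 genes. Of those 10, 6 passed the minimum of 10 counts in liver alone beside small intestine, and 9 did beside salivary glands. The contrast is therefore a description. All 24 symbols of the assembly and export list were found, as 26 genes. Of the 22 tested 12 were at least 2-fold higher in liver than in small intestine and 3 lower (median log2 ratio 1.21). Against salivary glands 9 of 23 were higher and 4 lower (median 0.68). The most abundant in liver besides P4HB were SURF4, the cargo receptor for lipoprotein export (FPKM 55.9, 95.6 and 141), MIA2, a partner of large coat carriers (26.8, 62.7 and 106), and SAR1B, the coat GTPase needed for chylomicron release (13.7, 29.8 and 72.3). In liver SAR1B stood 3.78-fold and SURF4 7.35-fold above MTTP on the FPKM scale. APOBEC1, the enzyme that edits APOB mRNA to its short intestinal form, had 0 counts in all 3 libraries, while its partner A1CF had 3, 2 and 856. DGAT2, which makes triglyceride, had an FPKM of 4.47, 0.427 and 49.2, and the lipid droplet gene CIDEC had 3.98, 1.19 and 0.0773. These 4 genes were chosen after their values were seen.

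For receptors of the particles 14 of 16 symbols were found as 22 genes, and of 16 tested 6 were higher in liver than in small intestine and 4 lower (median log2 ratio 0.31). Against salivary glands 6 of 14 were higher and 4 lower (median 0.21). LRP1, a receptor for remnants that bear APOE, had an FPKM of 24.9, 10.9 and 106. MYLIP, a ubiquitin ligase, had 38.8, 117 and 120, and SDC1, a heparan sulfate proteoglycan of remnant uptake, had 31.6, 43.1 and 19.1. LRP2 and CUBN were each split over 5 loci, so their values are uncertain.

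Among lipases and remodelling proteins, 12 of 14 symbols were found as 13 genes, and 5 of 13 were higher in liver than in small intestine and 2 lower (median log2 ratio 0.79). Against salivary glands 6 were higher and 2 lower (median 0.88). LPL, the lipase that APOC2 activates, had an FPKM of 60.8 in small intestine, 2.58 in salivary glands and 5.62 in liver, so that small intestine, not liver, was highest, unlike for APOC2. LCAT, which APOA1 activates, had 34.1, 9.45 and 75.1. FURIN, a convertase that cleaves LPL, had 38.7, 20.4 and 161, and SEL1L, an adaptor needed for LPL maturation, had 9.99, 20.2 and 35.3 at one locus and 10.2, 22.2 and 19.0 at a second, so its values are uncertain. For cholesterol efflux 6 of 6 symbols were found, of which 2 were higher in liver than in small intestine and 1 lower (median log2 ratio 0.07), and 4 higher and 2 lower than in salivary glands (median 1.48). ABCA1, which loads APOA1 with cholesterol, had an FPKM of 13.4, 7.63 and 54.4. ABCG1, which passes cholesterol on to formed high density lipoprotein, had 13.2, 4.01 and 10.9, ABCA7 had 4.12, 6.25 and 2.62, and ABCG4 had 2.35, 1.18 and 0.150.

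Among regulators, all 25 symbols were found as 31 genes, of which 15 were higher in liver than in small intestine and 5 lower (median log2 ratio 0.97), and 21 of 30 were higher and 2 lower than in salivary glands (median 2.06). CREB3L3, NR1H4, NR2F1 and SREBF2 were each split over several loci that were counted singly, so these counts and their values are uncertain. SREBF1, a regulator of lipid synthesis, had an FPKM of 181, 51.3 and 107, and CEBPB, an acute phase factor, had 40.4, 73.6 and 151. The most abundant 2 of 3 loci named CREB3L3, a regulator of APOA4 and APOC2 in mice, had 1.55, 0.238 and 74.9 and 2.66, 0.0701 and 67.7. HNF4A, a known activator of most apolipoprotein genes, had 102, 0 and 2142 counts, and its liver count was at least 474-fold higher than in salivary glands and 12.4 times that of small intestine. HNF4A, also chosen after its values were seen, had an FPKM of 1.81 in small intestine. In that library 25 of the 31 genes of this list and 59.4% of all genes exceeded an FPKM of 1. Whether HNF4A bears on the levels of the 10 genes was not tested.

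**Figure D5:**
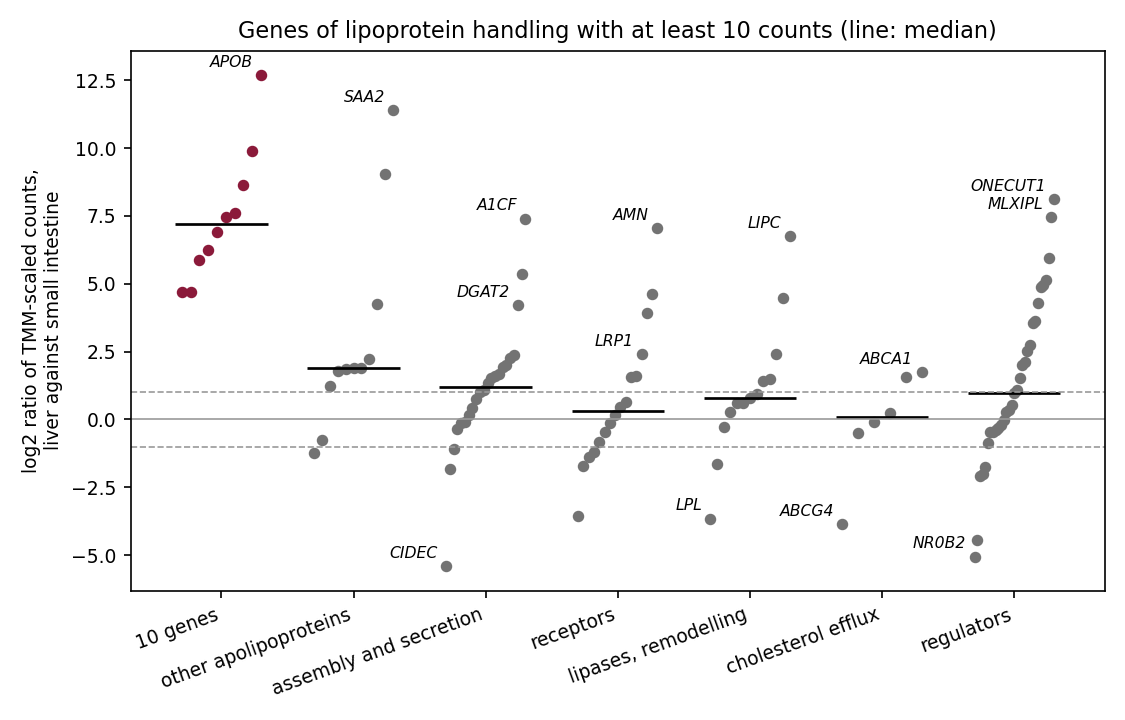
Log2 ratio of TMM-scaled counts of liver against small intestine for the 10 genes (dark red) and for the other genes of lipoprotein handling with at least 10 counts in either library (grey), each point a gene and each black line a median. Counts of 0 were taken as 3, dashed lines mark 2-fold, and the median is 7.19 for the 10 genes and between 0.07 and 1.88 for the other lists. Of the 10 genes, 6 passed the minimum through liver alone, so the contrast of medians is a description.

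Genes most like 3 of the set in level over the 3 libraries were found by the distance over log2 (FPKM + 1) among 13645 genes with a symbol and at least 10 counts. The nearest to APOB were 2 loci named FMO1 with an FPKM of 174 and 160 in liver and 0 elsewhere (distances 0.04 and 0.10), and UGT2B31 with 158 (0.12). Within a distance of 1 lay 27 genes for APOB and 94 for MTTP, but 0 for APOE. The nearest to MTTP were GCH1, ACP5 and CCL20, at 16.98, 15.5 and 17.1 in liver and distances of 0.31 to 0.34. The nearest to APOE were TDO2, the tryptophan dioxygenase of liver, with 27.9, 2.11 and 2601, at a distance of 1.86, and 2 loci named HP, or haptoglobin, with 15.9, 2.03 and 6882 and with 51.2, 6.34 and 25755, at 2.52 and 2.73. With 3 libraries, such likeness is a description of levels only.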

How the data were processed

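RNA of 3 tissues of 1 animal was sequenced in pairs, 1 library per tissue. The authors cleaned the reads, aligned them with TopHat2 to the M. javanica genome, whose build is not given in the sources used here, and built genes outside the annotation with Cufflinks. The deposited counts are whole fragments per gene with no scaling by the authors, and the counting tool is not given in the sources used here. The deposited FPKM values come from the authors, who define FPKM by fragments, mapped fragments and transcript length. They name RSEM for the levels in their correlation of tissues. Which tool gave the deposited values is not stated in the sources used here. The deposited annotation, unit other, holds the best database hits.

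Counts were scaled by TMM factors from edgeR 4.0.16 in R 4.3.3, computed over the 3 libraries. Python 3.11.15 with pandas 2.3.3, numpy 2.4.6, scipy 1.17.1 and matplotlib 3.10.9 did the rest. A gene was tested with at least 10 counts in either library and called past 2-fold. No p-value was computed, because each tissue had 1 library. Ratios carry 95% exact binomial intervals and shares Wilson intervals. A count of 0 was taken as 3. The 10 genes and the lists were chosen with earlier results of these data known. Named are the 10 genes, the 4 genes of highest FPKM in each pathway list (1 of these is not reported here), the other apolipoprotein genes, apolipoprotein neighbours within 50 kb and the 3 genes nearest in pattern to APOB, APOE and MTTP. Single cell type markers, other neighbours, APOBEC1, A1CF, DGAT2, CIDEC and HNF4A were named after their values were seen. Lists were matched by the NR product name, after values by symbol had been seen, since symbols can stand for paralogs. The exception was APOBEC1, whose NR entry is cut short and which was taken by its symbol. Salivary gland, adipocyte and erythroid lists were read with the others: their summed FPKM was 254, 14.6 and 4.06 in small intestine, 485, 25.2 and 0.0625 in salivary glands, and 151, 5.14 and 0.512 in liver.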

Additional observations from a re-analysis of the deposited data

How the results depend on the processing

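All values rest on 1 library per tissue of 1 animal, so tissue, library and animal state cannot be told apart, and 6 of the 10 genes were too low outside liver for those libraries to be compared. The 2-fold calls of liver (10 of 10 against each library) were the same under library size only, DESeq2 1.42.0 size factors, upper quartile and FPKM ratios. They were also the same at a fold of 4, with no filter on counts and with an FPKM above 1 in place of 10 counts. TMM factors computed without the small intestine library were added after seeing the data, for liver against salivary glands only. They were 0.927 for liver and 1.08 for salivary glands, beside 1.005 and 1.17 over the 3 libraries. The proportion between them was the same, so this setting could not change a call and is no check. All 87 values of single genes under the other scalings kept their direction and side of 2-fold. Between small intestine and salivary glands 4 genes were called, 3 by FPKM ratios or at a fold of 4, and 2 where an FPKM above 1 was required. Library size only moved the median log2 ratio of all genes from 0.08 to 0.32 (liver against small intestine), from 0.07 to -0.15 (liver against salivary glands) and from -0.02 to -0.47 (small intestine against salivary glands), where the share of calls that were higher in small intestine fell from 54.9% to 35.7%. Genes expressed in small intestine numbered 2, against 4 at an FPKM above 0.5 or with at least 10 counts and 1 at an FPKM above 5. The summed share by FPKM was 0.0101% in small intestine and 0.845% in liver, and without the 10 most abundant genes it was 0.0128% in small intestine, 0.00155% in salivary glands and 1.11% in liver. The median over genes was not computed from FPKM ratios, since genes listed at 0 have none. No paired analysis was possible because each tissue had 1 library, and no replicate could be left out.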
